A study of Drosophila melanogaster with 54 samples.

Results

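Regions bound by 7 Drosophila Hox proteins and not by Labial (Lab) were examined in Kc167 cells, an embryonic cell line with features of haemocytes, the blood cells of the fly. The region lists of the 8 Hox proteins expressed without the cofactor Homothorax (Hth), called at a threshold of q 0.01, were merged wherever they overlapped by at least 1 bp. Members were chosen by the binding calls themselves: merged regions that overlapped no Lab region but a region of each of the posterior proteins Abdominal-B (Abd-B), Abdominal-A (Abd-A) and Ultrabithorax (Ubx), and of Antennapedia (Antp), Sex combs reduced (Scr), Deformed (Dfd) and Proboscipedia (Pb). This gave 450 members among 12340 merged regions (3.65%). Their presence in the 7 lists, their absence from the Lab list and the calls of the same 8 groups at the stricter threshold of q 1e-10 come from the libraries that chose them, and these values are given as a description only. A further 1297 merged regions held all 8 proteins, and 2005 held Lab together with fewer than 7 of the others.

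Each protein was fused to eGFP and expressed from a plasmid under a copper-inducible metallothionein promoter, in transiently transfected cells treated with 1 mM copper sulphate for 4 h. Cells were fixed in 1% formaldehyde for 10 min, sorted to a like level of GFP, and taken for ChIP with an antibody to GFP. The 18 ChIP groups were the 8 Hox proteins alone, the same 8 with Hth expressed from the same plasmid (Lab+Hth and so on), Hth alone, and Exd+Hth, in which eGFP marked Extradenticle (Exd). Each group had 2 ChIP libraries and 1 input library, 54 samples in all. The cells carry no Hth of their own and hold Exd in the cytoplasm unless Hth is supplied, and protein made from a plasmid at a set level is not the endogenous protein. The lists give 1 set of regions for each group, combined from both replicates and without heights or read counts. No value below therefore has a replicate error, sequencing depth does not show in the lists, and the 95% intervals (Wilson for a share, Newcombe for a difference of shares) cover only the counting of regions. Positions refer to dm6 and count from 1. The set of all merged regions, used as background throughout, includes the members.

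Hox proteins are homeodomain transcription factors that give segments along the body axis their identity, with Lab the most anterior and Abd-B the most posterior in expression. Alone they recognise short AT-rich sequences that differ little from one family member to another. Hth carries Exd into the nucleus, and Exd-Hox dimers bind longer composite sites. In open chromatin many transcription factors are recovered at the same places.

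To show what a member looks like at the level of sequence, the central 200 bp of 4 members whose centre held a Hox or Exd-Hox match are printed first. Capitals mark matches, on either strand, to the Exd-Hox letters TGATTAAT, TGATTGAT or TGATTTAT, to HoxA, spelled as TTAATGA and as TTAATTA, or to HoxB, spelled as TTTATGA and also with the endings GG, TA and TG. Exd-Hox matches can share bases with those of HoxA and HoxB, and a match is a description of the letters, not a site in use. All sequences are the plus strand of the RefSeq Release 6 genome. They lie in introns of Stat92E, the transcription factor of JAK/STAT signalling (chr3R:20546882-20547081), Socs36E, an inhibitor of the same pathway (chr2L:18147350-18147549), InR, the insulin receptor gene (chr3R:21613051-21613250), and kuz, which encodes a metalloprotease that cleaves Notch (chr2L:13614630-13614829).
Stat92E: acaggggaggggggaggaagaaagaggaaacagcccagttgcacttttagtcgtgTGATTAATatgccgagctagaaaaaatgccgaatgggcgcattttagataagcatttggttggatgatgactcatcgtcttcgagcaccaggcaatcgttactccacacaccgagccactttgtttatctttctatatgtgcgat
Socs36E: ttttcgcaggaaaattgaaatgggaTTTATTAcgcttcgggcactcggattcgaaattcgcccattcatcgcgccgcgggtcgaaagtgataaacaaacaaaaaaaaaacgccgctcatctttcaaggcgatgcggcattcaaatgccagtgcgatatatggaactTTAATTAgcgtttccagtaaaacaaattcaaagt
InR: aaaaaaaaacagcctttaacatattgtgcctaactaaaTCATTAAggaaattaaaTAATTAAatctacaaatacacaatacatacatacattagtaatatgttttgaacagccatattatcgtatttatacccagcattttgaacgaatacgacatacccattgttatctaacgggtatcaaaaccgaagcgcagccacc
kuz: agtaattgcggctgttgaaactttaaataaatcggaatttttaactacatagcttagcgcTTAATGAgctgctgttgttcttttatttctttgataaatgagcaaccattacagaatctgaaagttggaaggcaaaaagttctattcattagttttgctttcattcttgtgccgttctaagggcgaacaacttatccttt

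Most members held no such match in the centre, and the next 3 sequences show a feature that was more frequent in the centres than in their flanks, a run of alternating G and A. Capitals mark GAGAGAG on either strand. The first lies in an intron of the Hox gene Scr (chr3R:6848670-6848869), the second in an intron of puc, the phosphatase gene of JNK signalling (chr3R:8120002-8120201), and the last between genes near Slmap (chr2L:22574442-22574641). The puc region had a Lab region only 144 bp away and the Slmap region had none within 549304 bp. The last sequence, from an intron of the cell cycle regulator gene E2f1 (chr3R:21658142-21658341), belongs to 1 of the 4 members found in all 7 stricter lists and held none of these letters.
Scr: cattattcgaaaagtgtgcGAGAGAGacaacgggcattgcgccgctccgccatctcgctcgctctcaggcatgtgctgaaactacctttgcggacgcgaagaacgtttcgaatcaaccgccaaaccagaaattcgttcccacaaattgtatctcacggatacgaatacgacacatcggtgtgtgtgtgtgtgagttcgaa
puc: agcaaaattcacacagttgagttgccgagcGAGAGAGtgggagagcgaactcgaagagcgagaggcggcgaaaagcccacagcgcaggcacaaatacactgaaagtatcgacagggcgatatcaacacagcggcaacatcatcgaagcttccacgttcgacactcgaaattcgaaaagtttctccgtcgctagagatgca
Slmap: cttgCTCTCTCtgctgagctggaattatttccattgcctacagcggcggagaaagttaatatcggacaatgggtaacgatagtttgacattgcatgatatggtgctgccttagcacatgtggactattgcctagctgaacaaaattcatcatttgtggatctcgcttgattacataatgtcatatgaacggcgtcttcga
E2f1: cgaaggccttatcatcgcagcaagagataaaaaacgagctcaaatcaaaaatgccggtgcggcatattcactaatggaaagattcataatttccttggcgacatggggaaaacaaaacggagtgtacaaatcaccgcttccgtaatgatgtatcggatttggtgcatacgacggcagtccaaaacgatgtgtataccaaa

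Lab was the protein most often missing from an otherwise complete set. Of the 794 merged regions with exactly 7 proteins, 450 (56.7%) lacked Lab, 138 lacked Pb, 135 Ubx, 57 Antp, 9 Abd-A, 4 Dfd, 1 Abd-B and 0 Scr. These counts did not follow the order of list length. At q 0.01 Antp had 3507 regions and Ubx 3725, both fewer than the 3829 of Lab, while Pb had 5588 and Abd-B 9776. Counted over the 1747 regions that held the 7 other proteins, 25.8% lacked Lab.

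The 450 members ranged from 406 to 4356 bp in width, with a median of 1114 bp (quartiles 768.5 and 1579). Regions with all 8 proteins had a median of 1456 bp and all merged regions 596 bp, and a merged region grows with the number of lists it joins. In 428 members at least 1 bp was covered by all 7 proteins, and this common stretch had a median of 335 bp. In the remaining 22 the 7 proteins were chained through overlaps with no shared base. Each of the 7 proteins had a single region in 290 members. The members lay on all 6 chromosome arms, with 114 on 3R, 91 on 2R, 89 on X, 81 on 3L, 74 on 2L and 1 on the fourth chromosome.

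The distance from members to Lab varied widely. The gap to the nearest Lab region had a median of 6332 bp (quartiles 1644 and 21117), 79 members had a Lab region within 1000 bp, 210 had one within 5000 bp, and 187 had none within 10000 bp. Just inside the rule stood regions of CG9674 (3L 16804523 to 16805247), puc (3R 8119679 to 8120524) and yki (2R 24068120 to 24068738), the coactivator of Hippo signalling, with gaps to Lab of 132, 144 and 146 bp. Of the regions with all 8 proteins, those with the fewest bases of Lab were next to CG43954 (3L 16710530 to 16712842) with 207 bp, in the syndecan gene Sdc (2R 21480471 to 21481336) with 208 bp and in CG11658 (3L 11707903 to 11708632) with 215 bp. A merged region holds its Lab regions whole, so these values are Lab widths. They do not show how far Lab overlapped the other proteins. The members farthest from Lab were in UQCR-11, a gene of mitochondrial complex III (3L 25120404 to 25121426, 2171393 bp away), CG41099 (3R 3846589 to 3847461, 581617 bp), near Slmap (2L 22574127 to 22574957, 549304 bp), in Marf1 (2L 22353873 to 22354948, 329050 bp) and near the annexin gene AnxB10 (X 20173165 to 20174235, 277173 bp). None of these 5 overlapped Lab+Hth, nor did 285 of all 450 members. Members with no Lab region within 1000 bp overlapped Lab+Hth in 35.6% of cases, against 36.7% of all members.

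In the stricter lists the 7 proteins did not share the members equally. At q 1e-10 Abd-B had a region in 436 of the 450 members (96.9%), Scr in 411 (91.3%), Dfd in 393 (87.3%) and Abd-A in 277 (61.6%). Ubx had one in 92 (20.4%), Pb in 80 (17.8%) and Antp in 34 (7.56%). Over all merged regions these shares were 39.1% for Abd-B, 28.0% for Scr, 32.8% for Dfd, 15.4% for Abd-A, 7.46% for Ubx, 18.9% for Pb and 6.05% for Antp. Pb and Antp thus stood near the background in members and the others above it. This comparison is partly set by the rule, which puts all 7 proteins in every member at q 0.01. Over all merged regions the q 0.01 shares ran from 24.4% for Antp to 74.8% for Abd-B. The lengths of these lists ran from 837 regions in Antp to 5675 in Abd-B. Regions with all 8 proteins were in more of the stricter lists: Pb had a region in 63.4% of them, Ubx in 51.6%, Antp in 47.1%, and Abd-B in 97.1%. The commonest combination among members was Dfd, Scr, Abd-A and Abd-B with 123 members, followed by Dfd, Scr and Abd-B with 95 and by Pb, Dfd, Scr, Abd-A and Abd-B with 47. The median member was in 4 of the 7 stricter lists and the median region with all 8 in 6 of them. Only 4 members were in all 7, against 394 of the 1297, and 2 members were in none, of which the one in Itpr (3R 5516517 to 5518210) was named after its values were seen.

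**Figure D1:**
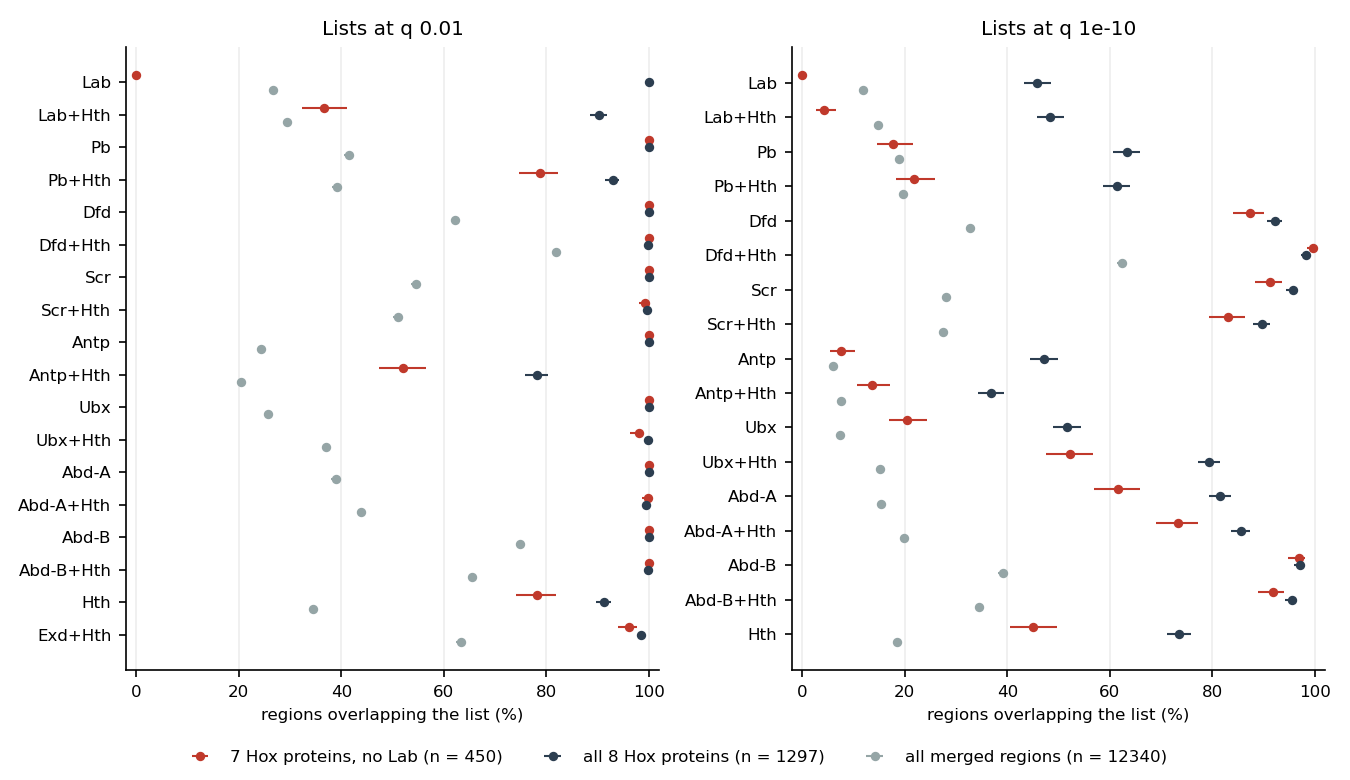
Share of regions (x axis, percent) that overlapped the list of each ChIP group (y axis), at q 0.01 on the left and q 1e-10 on the right, for the 450 members in red, the 1297 regions with all 8 proteins in dark blue and all 12340 merged regions in grey, with 95% Wilson intervals. The rule fixes the points of the 8 Hox proteins without Hth on the left, and Exd+Hth is shown at q 0.01 only. Away from these, Lab+Hth separates the members (36.7%) from the regions with all 8 (90.3%) more than any other list on the left. The rule divides these classes by Lab itself, so this gap is partly set by that choice.

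Applying the same rule to the stricter lists gave a different set of places. It gave 98 regions with the 7 proteins and no Lab at q 1e-10, and 94 of these (95.9%, 90.0 to 98.4) overlapped a Lab region at q 0.01. Only 3 of the 98 (3.06%) fell within a member, while 95 (96.9%) fell within a region that had all 8 proteins at q 0.01. A region can therefore lack Lab at 1 threshold and hold it at the other, and the 450 members are regions in which Lab did not reach the looser one. The 98 regions lay within 500 bp of a start site in 38.8% of cases (29.7 to 48.7) and overlapped Lab+Hth at q 1e-10 in 24.5% (17.0 to 33.9). The 306 regions with all 8 proteins at q 1e-10 did so in 26.5% and 89.9%, and all 7828 merged regions at q 1e-10 in 38.9% and 22.1%, so the intervals of the 98 regions held the background in both. For Lab+Hth that background includes regions with Lab at q 1e-10, which the rule bars from the 98.

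Lab with Hth was read from other libraries than those that chose the members. A Lab+Hth region at q 0.01 overlapped 165 of the 450 members (36.7%, 32.3 to 41.2), where 29.5% of all 12340 merged regions overlapped one. That background includes the 3302 merged regions with Lab, which the rule bars from the members. Of the regions of Lab with fewer than 8, 75.7% overlapped Lab+Hth. Comparisons of members with all merged regions in Lab+Hth, here by width, by start site and in the stricter list, are therefore partly set by the rule. Members are wider than most merged regions, and at like width they did not exceed them by more than counting error. From 406 to 897 bp 26.7% of the members overlapped Lab+Hth (20.2 to 34.3), an interval that held the 22.7% of all merged regions. Members were below all merged regions from 898 to 1421 bp (35.3%, 28.1 to 43.3, and 46.7%) and from 1422 to 4356 bp (48.0%, 40.2 to 55.9, and 73.3%). Within 500 bp of a start site members exceeded all merged regions by 13.9 points (8.46 to 19.6), and beyond it the difference was 3.47 (-3.85 to 11.3). Among regions with all 8 proteins the share was 90.3%, a difference of -53.6 percentage points (-58.2 to -48.8). The rule divides these classes by Lab itself, so a gap in a list of the same protein is partly set by that choice. In the stricter list Lab+Hth overlapped 19 members (4.22%, 2.72 to 6.50), against 14.7% of all merged regions and 48.4% of the regions with all 8. So 285 members (63.3%) had a Lab region neither without nor with Hth. Of 157 members with Lab+Hth and a common stretch, 141 (89.8%) had a Lab+Hth region that overlapped that stretch by at least 1 bp. Counted in the same way, this was below Antp+Hth (93.2%), Hth (94.0%), Pb+Hth (96.4%) and every other list with Hth. With the overlap sought in the central 200 bp alone, a setting chosen after seeing the data, 24.4% of the members overlapped Lab+Hth.

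The 5 members with the widest overlap with a stricter Lab+Hth region lay in introns. They were in CG32264 (3L 3764279 to 3766730), with 1083 bp of overlap, in luna, a zinc finger gene (2R 11102518 to 11105212, 708 bp), in Spn, which encodes spinophilin (3L 2551850 to 2554006, 685 bp), in the protein kinase A anchor gene Akap200 (2L 8422821 to 8424614, 586 bp) and in the lipoprotein receptor gene LRP1 (2R 8176593 to 8177289, 490 bp). All 5 overlapped every Hox protein with Hth and Exd+Hth, and Spn and LRP1 were without an Hth region. The common stretch of the 7 proteins was absent in luna, Spn and Akap200, which are thus chained regions.

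Members that overlapped Lab+Hth differed from those that did not in several lists that the rule did not use. Hth overlapped 86.7% of the 165 and 73.3% of the 285, a difference of 13.3 points (5.63 to 20.3). For Pb+Hth the shares were 89.7% and 72.3% (difference 17.4, 10.0 to 24.1), for Antp+Hth 61.8% and 46.3% (15.5, 5.94 to 24.6), and for Hth at q 1e-10 57.6% and 37.9% (19.7, 10.1 to 28.8). The members with Lab+Hth were also wider, with medians of 1271 and 1061 bp, and a wider region has more room for any overlap. A Lab region lay within 1000 bp in 33 of the 165 and in 46 of the 285 (difference 3.86, -3.30 to 11.6). The share near a start site was 63.6% and 66.0% (difference -2.33, -11.6 to 6.65).

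The share with Lab+Hth was higher in members found in more stricter lists, although the count of stricter lists comes from the groups that chose the members and is given as a description. It was 28 of 124 members (22.6%, 16.1 to 30.7) in 3 of the 7 lists, 56 of 144 (38.9%, 31.3 to 47.0) in 4, 51 of 98 (52.0%, 42.3 to 61.7) in 5 and 17 of 29 (58.6%, 40.7 to 74.5) in 6. Regions with all 8 proteins in the same numbers of stricter lists had shares of 73.7%, 84.1%, 90.7% and 93.8%. At each of these 4 levels the members stood below the regions with all 8.

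**Figure D2:**
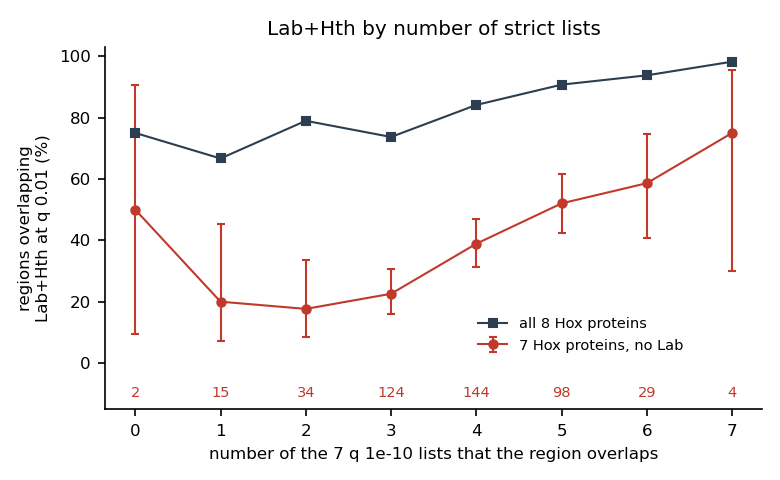
Share of regions that overlapped Lab+Hth at q 0.01 (y axis, percent) by the number of the 7 q 1e-10 lists the region overlapped (x axis), for members (red, 95% Wilson intervals, number of members in red along the bottom) and for regions with all 8 proteins (dark blue). Both lines are higher on the right than at 3 lists, and the members stay below, at 22.6% against 73.7% for 3 lists and 58.6% against 93.8% for 6.

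The difference in Lab+Hth between members and regions with all 8 proteins was present in each class of width and on both sides of 500 bp from a start site, in comparisons chosen after seeing the data. Among regions of 406 to 897 bp, 26.7% of 150 members and 84.2% of 298 regions with all 8 overlapped Lab+Hth (difference -57.6 points, -65.0 to -48.7). From 898 to 1421 bp the shares were 35.3% and 86.2%, and from 1422 to 4356 bp 48.0% and 94.9% (difference -46.9, -54.9 to -38.7). Within 500 bp of a start site the shares were 35.8% and 86.8%, and beyond it 38.2% and 93.4%. As given above, members of the wider classes were below all merged regions of their width as well. The rule still divides members from regions with all 8 by Lab in each of these comparisons, and all merged regions include those with Lab.

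Whether other proteins were found with Hth where they were missing without it was asked in the same way for the classes that lacked Pb, Antp or Ubx. Pb+Hth overlapped 26 of the 138 regions that lacked Pb (18.8%, 13.2 to 26.2), Antp+Hth 23 of the 57 that lacked Antp (40.4%, 28.6 to 53.3), and Ubx+Hth 117 of the 135 that lacked Ubx (86.7%, 79.9 to 91.4). The 36.7% of Lab was above the share of Pb by 17.8 points (9.31 to 25.1), below that of Ubx by a difference of -50.0 points (-56.4 to -41.9), and no farther from that of Antp than counting error (difference -3.68, -17.3 to 8.90). Over all merged regions the shares were 29.5% for Lab+Hth, 39.1% for Pb+Hth, 20.4% for Antp+Hth and 37.0% for Ubx+Hth, so the class without Pb lay below its background and those without Antp or Ubx above theirs. Each background includes the regions that held the protein without Hth, which the class leaves out by rule. These were 3302 for Lab, 5120 for Pb, 3015 for Antp and 3167 for Ubx, so the position against background is partly set by that choice. Regions with all 8 proteins overlapped Pb+Hth in 93.0%, Antp+Hth in 78.1% and Ubx+Hth in 99.8% of cases. Libraries of Ubx and both Abdominal proteins were sequenced on another platform than the rest, and its part in the comparison with Ubx was not tested. Mapped reads, as the paper reports them, also differed and were fewest in a Pb+Hth library. The part of depth in these comparisons was not tested. The lists with Hth also differ in length, with 4822 regions for Lab+Hth, 5692 for Pb+Hth, 2880 for Antp+Hth and 5656 for Ubx+Hth.

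**Figure D3:**
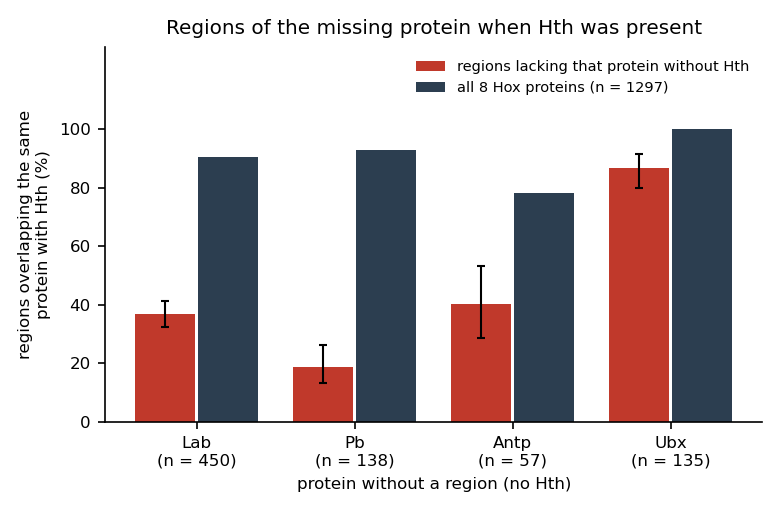
Share of regions (y axis, percent) that overlapped the named protein with Hth, for regions in which only that protein was missing without Hth (red, 95% Wilson intervals) and for the 1297 regions with all 8 proteins (dark blue). The 4 classes with at least 50 regions are shown. Ubx is highest at 86.7%, Lab (36.7%) and Antp (40.4%) lie together, and Pb is lowest at 18.8%.

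The cofactors alone were found in most members. Hth overlapped 352 members (78.2%, 74.2 to 81.8), against 34.4% of all merged regions and 91.3% of those with all 8 proteins, a difference from the latter of -13.1 points (-17.4 to -9.13). Exd+Hth overlapped 433 members (96.2%, 94.0 to 97.6), against 63.3% of all merged regions and 98.5% of those with all 8 (difference -2.24, -4.49 to -0.604). In the classes that lacked Pb, Antp or Ubx the shares were 73.9%, 86.0% and 73.3% for Hth, and 87.7%, 100% and 96.3% for Exd+Hth. High shares of the cofactors were thus not particular to members. Members are also wider than most merged regions, and a wider region has more room for an overlap. The Exd+Hth list was longer, with 10404 regions against 5367 for Hth. The paper states that low background in the Exd+Hth ChIP let weaker peaks pass. At q 1e-10 Hth overlapped 45.1% of the members, 18.5% of all merged regions and 73.6% of the regions with all 8. Both cofactor lists were present in 351 members (78.0%), Exd+Hth without Hth in 82, and neither in 16. Among these 16 were regions assigned to UQCR-11, the CREB-binding protein gene nej and the insulator gene mod(mdg4), the last 2 named after their values were seen. In the central 200 bp alone, Hth overlapped 65.1% of the members.

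With Hth the 7 proteins stayed at the members to different degrees. Dfd+Hth and Abd-B+Hth overlapped all 450, Abd-A+Hth 449, Scr+Hth 447 and Ubx+Hth 441, while Pb+Hth overlapped 354 (78.7%, 74.7 to 82.2) and Antp+Hth 234 (52.0%, 47.4 to 56.6). Of all merged regions, 81.9% overlapped Dfd+Hth, 65.6% Abd-B+Hth, 43.9% Abd-A+Hth, 51.0% Scr+Hth, 37.0% Ubx+Hth, 39.1% Pb+Hth and 20.4% Antp+Hth, and members were above each of these shares. This excess is partly set by the rule, which puts each of the 7 proteins without Hth in every member but not in every merged region. In regions with all 8 proteins Pb+Hth was found in 93.0% and Antp+Hth in 78.1%, differences of -14.3 points (-18.5 to -10.5) and -26.1 points (-31.2 to -21.0). All 8 Hox proteins with Hth were present in 98 members (21.8%), against 69.9% of the regions with all 8, and all but Lab+Hth in 104 (23.1%). Another 96 lacked both Lab+Hth and Antp+Hth, and 47 lacked Lab+Hth, Pb+Hth and Antp+Hth. The members in the fewest lists with Hth were beside Pvr, the receptor tyrosine kinase gene of haemocytes (2L 8239614 to 8240335), and in CG2082 (3R 5758523 to 5759202), with 3 of 8 each. Regions of CG9485 (2R 21312342 to 21313638), heph, which encodes a splicing regulator (3R 31985252 to 31986021), and near CG7518 (3R 12997853 to 12998299) were in 4. All 5 kept Dfd+Hth and Abd-B+Hth.

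Members lay close to transcription start sites. The centre was within 500 bp of an annotated start site in 293 of 450 members (65.1%, 60.6 to 69.4), in 47.4% of regions with all 8 proteins (difference 17.7 points, 12.4 to 22.7) and in 41.3% of all merged regions (difference 23.8, 19.2 to 28.1). With the rule applied at q 1e-10 the share was 38.8%, beside 38.9% of all merged regions at that threshold, so the excess over all regions was seen with the q 0.01 rule and not with the stricter one. The median distance was 292 bp in members, 566 bp in regions with all 8, 892 bp in all merged regions and 2348 bp in regions of Lab with fewer than 8. By annotation the centre fell in an intron in 209 members (46.4%), a 5′ UTR in 130 (28.9%), between genes in 82 (18.2%), in a coding exon in 11, a noncoding exon in 10 and a 3′ UTR in 8. The 5′ UTR share was 17.3% in regions with all 8 and 17.3% in all merged regions, differences of 11.6 points from either (7.08 to 16.4 and 7.58 to 16.0). The classes that lacked another protein were less often near a start site, with 49.3% for Pb (difference from members 15.8, 6.43 to 25.1), 47.4% for Antp (17.7, 4.25 to 30.8) and 31.9% for Ubx (33.3, 23.8 to 41.7).

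The excess over regions with all 8 proteins depended on width. From 406 to 897 bp, 68.7% of the members and 66.4% of the regions with all 8 were near a start site, a difference of 2.22 points (-7.12 to 11.1) that counting error covers. From 898 to 1421 bp it was 12.1 points (2.71 to 20.8), and from 1422 to 4356 bp, 57.3% against 35.4%, it was 21.9 points (13.1 to 30.4). These width classes were set after seeing the data.

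**Figure D4:**
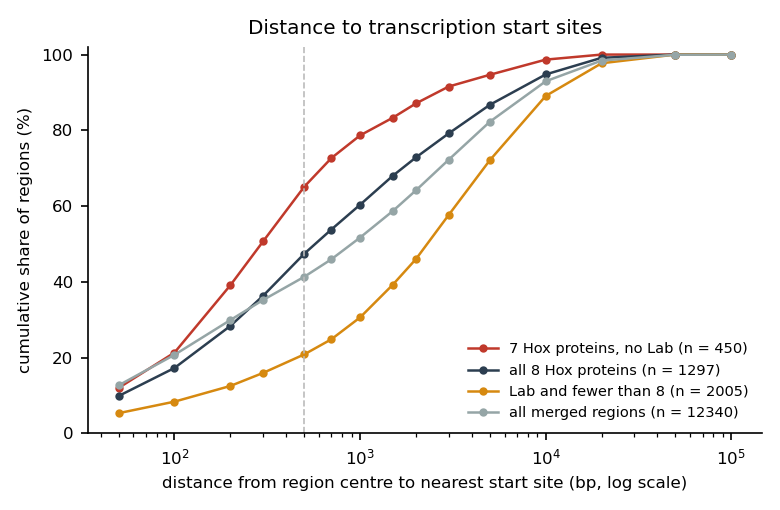
Cumulative share of regions (y axis, percent) by the distance from the region centre to the nearest annotated start site (x axis, bp, log scale), for members (red), regions with all 8 proteins (dark blue), regions of Lab with fewer than 8 (orange) and all merged regions (grey). The dashed line marks 500 bp, where the members stand at 65.1% and the regions of Lab with fewer than 8 at 20.8%.

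HoxA and HoxB differed between the members' centres and their flanks by no more than counting error. HoxA was found in 56 of 450 central windows (12.4%, 9.71 to 15.8), in 11.8% of flanking windows placed 1000 bp to either side and clear of bound regions, in 11.8% of regions with all 8 proteins and in 19.7% of all merged regions (difference -7.27 points, -10.1 to -3.83). In the 2005 regions of Lab with fewer than 8 it was found in 28.5% (difference -16.0, -19.4 to -12.2) against 10.2% in their flanks. HoxB was found in 24.2% of the members' centres, 22.3% of their flanks and 29.2% of all merged regions. The Exd-Hox letters were found in 24 members (5.33%, 3.61 to 7.81), 3.08% of their flanks and 5.86% of all merged regions, and in 9.43% of the regions of Lab with fewer than 8 (difference -4.09, -6.29 to -1.34). Split by the variable base, 14 members had TGATTTAT, 7 had TGATTAAT and 6 had TGATTGAT. The Hth letters TGACAG were in 22 members (4.89%), 4.10% of their flanks and 7.49% of all merged regions.

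The lower HoxA share was seen away from start sites. Near a start site HoxA was in 13.3% of the members and 12.5% of all merged regions (difference 0.762, -2.78 to 5.22), and beyond 500 bp it was in 10.8% and 24.8% (difference -13.9, -18.0 to -8.03). In regions with all 8 proteins the shares were 10.4% near and 13.0% beyond. The Exd-Hox letters were more frequent in members near a start site, in 6.14% against 3.47% of all merged regions (difference 2.67, 0.386 to 6.06) and 2.93% of the regions with all 8 (3.22, 0.447 to 6.74). Beyond 500 bp they were in 3.82% of the members and 7.54% of all merged regions (difference -3.72, -5.87 to 0.585). Members with and without Lab+Hth did not differ in HoxA (11.5% and 13.0%, difference -1.47, -7.43 to 5.24) nor in the Exd-Hox letters as a whole (5.45% and 5.26%, difference 0.191, -3.94 to 5.21) by more than counting error. TGATTGAT was in 5 of the 165 with Lab+Hth and 1 of the 285 without (difference 2.68, 0.317 to 6.56), 1 of 30 such comparisons that were made between these members, none of them adjusted.

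GAGAGAG, the repeat bound by GAGA factor, a protein associated with open promoters, was in 63 members (14.0%, 11.1 to 17.5) against 1.54% of their flanks (difference 12.5 points, 9.06 to 16.1) and 6.32% of all merged regions (difference 7.68, 4.74 to 11.2). Regions with all 8 proteins had it in 12.3% (difference 1.74, -1.73 to 5.63), regions of Lab with fewer than 8 in 3.64%, and the classes that lacked Pb or Ubx in 5.80% and 5.19% (differences 8.20, 2.23 to 12.7 and 8.82, 2.92 to 13.2). In the class that lacked Antp it was 8.77%, and counting error covers the difference from members (5.23, -5.35 to 11.3). The excess over all merged regions was present both near a start site (13.0% and 7.06%, difference 5.91, 2.46 to 10.3) and beyond (15.9% and 5.80%, difference 10.1, 5.19 to 16.7). The letters TATCGATA, the DNA replication-related element found in housekeeping promoters, were in 13 members (2.89%), 0.771% of the regions with all 8 (difference 2.12, 0.763 to 4.14) and 2.91% of all merged regions. All but 1 of these 13 lay within 500 bp of a start site. The AP-1 letters TGANTCA were in 6.44% of the centres, 2.31% of the flanks (difference 4.14, 1.35 to 7.01) and 6.18% of all merged regions. The STAT letters TTCNNNGAA were in 2.22% of the centres, 4.87% of the flanks (difference -2.65, -5.45 to -0.138) and 5.31% of all merged regions. The ETS letters CCGGAA were in 9 of the 450 centres, 7.18% of the flanks (difference -5.18, -8.33 to -2.39) and 4.78% of all merged regions. The GATA letters, AGATAA with A or T first and A or G last, were in 32.7% of the centres, 31.3% of the flanks and 34.7% of all merged regions. These are unadjusted values for sequences chosen from 16 searched.

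**Figure D5:**
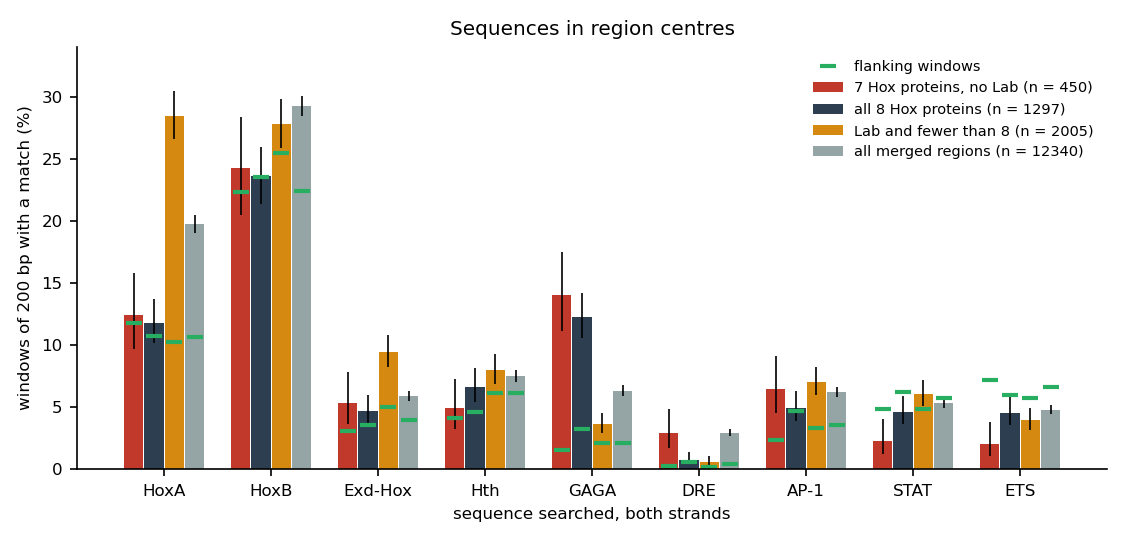
Share of 200 bp centre windows with a match on either strand (y axis, percent, bars with 95% Wilson intervals) to each sequence (x axis), for members, regions with all 8 proteins, regions of Lab with fewer than 8 and all merged regions. Green lines give the share in the flanking windows of each class. HoxA stands above its flanks in the regions of Lab with fewer than 8 (28.5%) and close to them in members (12.4%), whereas GAGA stands far above its flanks in members (14.0% against 1.54%).

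Members were assigned to 406 genes. A member lay in the body or within 1 kb of 659 of 13945 protein-coding genes (4.73%), and 242 of these 659 (36.7%) also had a Lab region in the same span, so a gene with a member was not always free of Lab. In the lists of genes the largest count was among the ecdysone response genes, where 7 of 15 (46.7%) had a member and all 15 had some Hox region. Of the same 15 genes, 11 had a region with all 8 proteins and 14 a Lab region, so the high count was not particular to members. Over all 13945 protein-coding genes, 7884 had some Hox region, 1398 a region with all 8 and 2383 a Lab region. The 7 were the receptor gene EcR, the early genes br, Eip74EF and Eip75B, the nuclear receptor genes Hr4 and Hr39, and Eip63E, which encodes a cyclin-dependent kinase. All 7 also had a Lab region elsewhere in the span. Long genes have more room for a region, and gene length was not tested here. Of the insulin and TOR genes 4 of 10 had a member, of the haemocyte genes 3 of 23, of the TALE cofactor genes 1 of 4, and of the JAK/STAT genes 2 of 8. The counts were 2 of 19 for Notch, 2 of 12 for EGF receptor, 2 of 12 for JNK and AP-1, 2 of 11 for immune, 1 of 17 for actin and adhesion, 1 of 12 for neuronal and 1 of 8 for Hox genes. None of 22 known Hox target genes had a member, and beside 4.73% over all protein-coding genes a list of this size is too short to show a lack. Some Hox region was present in 15 of the 22 and a Lab region in 13.

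Among the hormone response genes, the EcR member lay in an intron (2R 6131774 to 6132520), 225 bp from a start site and 5878 bp from Lab, and overlapped Lab+Hth. The Eip75B member (3L 17957058 to 17958895) overlapped Lab+Hth also at q 1e-10, by 277 bp, and the gene held 3 members, 4 regions with all 8 proteins and 8 Lab regions. The members of Eip74EF (3L 17573726 to 17574471) and Eip63E (3L 3542193 to 3543022) were free of Lab+Hth. Of the insulin pathway, the InR member (3R 21612454 to 21613847) was in 6 of the 7 stricter lists and lacked Lab+Hth, while InR held 14 Lab regions in all. Members at S6k, the ribosomal protein S6 kinase gene (3L 5810406 to 5811118), and at Thor, the 4E-BP gene (2L 3477593 to 3478713), overlapped Lab+Hth. Thor had no Lab region in the gene or within 1 kb.

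Of the signalling genes, the pnt member (3R 23331421 to 23335657) was in all 7 stricter lists and overlapped Lab+Hth by 602 bp, and pnt, the ETS factor of the EGF receptor pathway, held 16 Lab regions and 7 regions with all 8 proteins. The Ras85D member (3R 9512301 to 9513506) was in 3 stricter lists and overlapped Lab+Hth, and Ras85D had no Lab region. Stat92E likewise had no Lab region but 2 members, of which the one in 6 stricter lists (3R 20546496 to 20547467) overlapped Lab+Hth and held TGATTAAT in its centre. The Socs36E member (2L 18146199 to 18148700) was in 6 stricter lists, lay 1479 bp from Lab and overlapped Lab+Hth over 1397 bp. The metalloprotease gene kuz held 4 members, of which the named one (2L 13614108 to 13615351) was in 6 stricter lists and without Lab+Hth, and mam, a Notch coactivator gene, held 1 (2R 14023735 to 14026198), with Lab+Hth. In kay, the Fos gene (3R 29786090 to 29786674), and puc (3R 8115845 to 8116869) the members were in 3 stricter lists and without Lab+Hth.

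Among the haemocyte genes, the members of LanB2, a laminin gene (3L 9614358 to 9616284), Pvr (2L 8229032 to 8231970) and drpr, the engulfment receptor gene (3L 1729803 to 1731344), lay within 533 bp of a start site, were present in 7 of the 8 lists with Hth and lacked only Lab+Hth. The LanB2 region was 57601 bp from the nearest Lab region and the Pvr region 282 bp. The cofactor gene hth held 2 members, and the named one (3R 10616663 to 10617519) was in 6 stricter lists and lacked only Lab+Hth. The Hox gene Scr held 1 (3R 6848443 to 6849097), in the stricter list of Abd-B alone, 43986 bp from Lab. At hth and Scr the authors took out regions over exons present on the plasmids. The member of sn, the fascin gene (X 7967051 to 7968472), was in a 5′ UTR and without Lab+Hth. The members near PGRP-LE, pll and Syx1A had their centres nearest to sd, in TfIIA-L and in eIF4EHP, and cannot be given to 1 gene.

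Besides pnt, the members in all 7 stricter lists were those of AnxB9, an annexin gene (3R 21064262 to 21066229), E2f1 (3R 21657027 to 21659457) and the region near hll (2L 14022968 to 14025908). Of the 29 members in 6 of the 7, those with the longest common stretch were, besides Socs36E, in kirre, an adhesion gene of myoblast fusion (X 2789526 to 2793349), ps, which encodes a splicing regulator (3R 9428067 to 9429875), a gene at 3R 18297457 to 18299970, Tet (3L 2817382 to 2818425) and bbx, which encodes an HMG-box protein (X 21367364 to 21368938). The kirre region had the longest common stretch of the 7 proteins among all members, 1441 bp, and lay 85513 bp from Lab. Hth and Exd+Hth overlapped all 8 of these regions. Lab+Hth overlapped 4 of them, AnxB9, E2f1, ps and the one at 3R 18297457, and not the 4 others. Several genes held more than 2 members by assignment: Eip75B and the bHLH gene Mnt 4 each, and CHES-1-like, SNF4Agamma, crp and kuz 3 each. All 3 members of SNF4Agamma overlapped Lab+Hth, against 0 of 4 in Mnt.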

How the data were processed

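Bowtie 1.2.2 was used by the authors to place reads on dm6, with uniquely placed reads retained, and MACS2 2.1.1.20160309 to find peaks against input, replicate by replicate, at q 0.01 and at q 1e-10. Peaks over exons present on the plasmids were taken out, and only regions seen in both replicates were deposited, as merged intervals, so the weaker library limits each list. The deposited lists hold start and end positions in bp for each region, with no counts, heights or fold values. Their score column is 0 throughout. Exd+Hth at q 1e-10 was not used here.

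Groups came from the labels. An overlap of 1 bp or more counted as shared. Position used Ensembl 115 (BDGP6.54) and the distance from the region centre to the nearest start site. Both strands of the central 200 bp were searched in the RefSeq Release 6 genome, and of windows 1000 bp to either side that touched no bound region. Shares have 95% Wilson intervals and differences 95% Newcombe intervals. The merged regions include the members. No significance test was run, because the lists combine both replicates.

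The members, gene lists (173 entries, all matched, 2 through a synonym) and sequences were chosen with earlier results of these data known. Named regions were, by rule, the 3 members nearest to Lab and the 3 regions with all 8 proteins and the fewest bases of Lab. The 10 members in most stricter lists (ties by common stretch) and the 5 farthest from Lab were added. So were the 5 with the widest stricter Lab+Hth overlap, the 5 in fewest Hox+Hth lists, and up to 4 genes of each list with a member within 1 kb. Some of these regions are not reported here. A region took the gene holding its centre, or else the protein-coding gene whose start site was nearest. Sequences were printed for named regions, leaving out windows over annotated UTRs (14 of 49) and 6 regions on arm 2R. Functions were tested on simulated regions with planted overlaps and matches. Python 3.11.15, numpy 2.4.6, pandas 2.3.3 and matplotlib 3.10.9 were used.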

Additional observations from a re-analysis of the deposited data

How the results depend on the processing

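Of 89 alternative values over 8 results, 70 stayed inside the reported interval, within the quartiles of the width or within 1.5 times the count. With members and overlaps taken from the q 1e-10 lists there were 98 members, and the shares were 24.5% for Lab+Hth, 82.7% for Hth, 38.8% within 500 bp of a start site, 9.18% with HoxA and 3.06% with Exd-Hox letters. Exd+Hth was not analysed there. With the stretch common to all 7 proteins in place of the merged region, Hth overlapped 73.4%, HoxA was in 9.58% and the median width was 335 bp. Searching the whole region gave HoxA in 51.3% and Exd-Hox letters in 27.1%, and 1000 bp in place of 500 bp from a start site gave 78.7%. In the central 200 bp, chosen after seeing the data, Lab+Hth overlapped 24.4% and Hth 65.1%. Leaving out each of the 7 required proteins in turn gave 450 to 758 members, the highest without Pb. Over these settings Lab+Hth overlapped 28.0% to 36.7%, Hth 72.3% to 78.2% and Exd+Hth 93.3% to 96.2%. The share near a start site was 60.7% to 66.4%, HoxA 9.89% to 13.8%, Exd-Hox letters 4.49% to 5.33% and the median width 1004 to 1114 bp. No paired analysis was possible because the deposited lists combine both replicates, and for the same reason no fit leaves out a replicate. Depth and enrichment of the libraries, which limit each list, do not show in these lists.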
